A study of Mus musculus with 4 samples.

Results

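The comparison described here sets murine embryonic stem cells (CM7/1) that overexpress Hey2 against those that overexpress Hey1, with both treated with doxycycline, the inducer, at 1000 ng/ml for 48 h. Its measure is the log2 value of the array labelled Hey2 induced minus that of the array labelled Hey1 induced, called the induced difference. It was taken over every probe set with exactly 1 gene symbol, 34958 of the 45101 on the array, which stand for 18194 genes. The gene was the unit: each was read by its probe set with the highest mean, and 12098 genes whose highest of 4 values reached the median of all values, 6.05, were compared. The same subtraction between the Hey1 and Hey2 arrays without doxycycline, the uninduced difference, shows what separated the cells before induction. All 4 groups share the CM7/1 background and an introduced Hey factor, and each group is 1 array of total RNA, with no replicates. No array of cells without an introduced factor and no array of doxycycline-treated cells without one was analysed here, so the factor, the line and doxycycline itself cannot be told apart. The promoter that drives each factor and whether a line is 1 clone are not known from the labels.

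Hey1 and Hey2 are basic helix-loop-helix proteins that Notch signalling switches on and that repress transcription. They bind E-box and class C sequences near target genes and are best known from the heart and blood vessels, where they partly stand in for each other. Embryonic stem cells are kept pluripotent by Oct4, Sox2, Nanog and their partners. A small, changing share of cells in such cultures enters a state that resembles the two-cell embryo and transcribes genes that are otherwise silent.

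The introduced genes were not visible at their own probe sets. The Hey1 probe set read 6.73 in Hey1 uninduced, 6.51 in Hey1 induced, 6.72 in Hey2 uninduced and 6.25 in Hey2 induced cells, an induced difference of -0.26. The Hey2 probe set read 4.84, 4.51, 4.25 and 4.34 in the same order, below the level filter on all 4 arrays. Neither array labelled induced was highest for its own factor, so the values go against the labels or do not test them, and directions below are those of the labelled arrays. The labels do not say if the introduced transcripts carry the part of the gene that these probes read. All 8 markers of embryonic stem cells were above the filter, with values of 10.89 to 14.96 on the induced arrays, and 0 differed 2-fold between them. Of markers of other cells, 2 of 8 for fibroblasts, 3 of 8 for endoderm, 1 of 6 for trophoblast, 2 of 6 for cardiomyocytes and 5 of 6 for neural cells reached the filter on an induced array, and in each set the 4 array medians lay within 0.5 of each other. Between the induced arrays, 1 fibroblast marker (Thy1, -2.07), 1 cardiomyocyte marker (Myl7, -1.20) and 1 neural marker (Sox1, -1.37) were past 2-fold, all lower in Hey2, and 0 of the endoderm and trophoblast markers. Of the fibroblast collagens, Col1a2 read 6.13 in Hey1 induced and 5.89 in Hey2 induced cells, and Col1a1 (5.24 and 4.98) and Col3a1 (4.29 and 4.58) were below the filter in both. Ratios of 3′ to 5′ probes of the 4 control transcripts, a sign of RNA quality, differed little between the induced arrays: 0.836 and 0.957 on the log2 scale for the transferrin receptor, 1.43 and 1.56 for pyruvate carboxylase, 0.513 and 0.424 for beta-actin, and 0.042 and 0.032 for Gapdh, in Hey1 and Hey2 cells.

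Promoter sequences of 4 genes are shown as examples of the letters described below, and no difference between the lines rests on them. They are the 250 bases before a start site from RefSeq on GRCm38.p6, written 5′ to 3′ on the gene's own strand. Sp110 (chr1:85603892-85604141, minus strand) and Zfp352 (chr4:90218570-90218819, plus strand) are listed two-cell genes that were high in Hey1 induced cells alone, and their capitals mark a run of 15 bases that both windows hold in 3 copies. Bcl6 (chr16:23988853-23989102, minus strand), higher in Hey2 induced cells, and Trpm1 (chr7:64185209-64185458, plus strand), lower in the Hey2 line in both states, have the Hey-type E-box CACGTG in capitals. These directions are those of the probe set with the highest mean. Other probe sets of Sp110, Bcl6 and Trpm1, all below the filter, had induced differences of only -0.21 to 0.19. RefSeq gives Sp110, Bcl6 and Trpm1 a second start site each, and the windows before those, not printed, lack the run (Sp110) or the E-box (Bcl6 and Trpm1).
Sp110: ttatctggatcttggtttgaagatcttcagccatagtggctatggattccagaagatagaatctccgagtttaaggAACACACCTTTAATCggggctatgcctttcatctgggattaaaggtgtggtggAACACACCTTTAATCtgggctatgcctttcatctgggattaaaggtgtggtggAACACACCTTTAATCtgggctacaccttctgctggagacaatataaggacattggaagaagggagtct
Zfp352: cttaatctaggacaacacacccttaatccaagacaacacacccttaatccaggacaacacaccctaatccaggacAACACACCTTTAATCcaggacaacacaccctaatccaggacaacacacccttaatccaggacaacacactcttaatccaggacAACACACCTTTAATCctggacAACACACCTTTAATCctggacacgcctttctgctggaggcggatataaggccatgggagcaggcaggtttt
Bcl6: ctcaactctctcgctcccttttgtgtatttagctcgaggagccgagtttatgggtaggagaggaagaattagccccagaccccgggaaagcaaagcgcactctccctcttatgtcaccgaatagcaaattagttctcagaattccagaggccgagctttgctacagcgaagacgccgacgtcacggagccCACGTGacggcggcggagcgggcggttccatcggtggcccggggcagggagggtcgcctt
Trpm1: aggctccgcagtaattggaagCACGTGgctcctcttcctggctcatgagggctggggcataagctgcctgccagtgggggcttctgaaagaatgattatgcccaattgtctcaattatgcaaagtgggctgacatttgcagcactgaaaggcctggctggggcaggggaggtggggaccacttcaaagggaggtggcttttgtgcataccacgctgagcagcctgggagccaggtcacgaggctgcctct

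Between the doxycycline-treated arrays, 195 of 12098 genes (1.61%) were at least 2-fold apart. Of these, 94 (0.777%) were higher and 101 (0.835%) were lower in Hey2 than in Hey1 cells. Before doxycycline, 237 genes were at least 2-fold apart, 100 (0.827%) higher and 137 (1.13%) lower. The largest induced differences were in one direction: 29 genes were at least 3-fold lower against 10 higher, and 7 were at least 8-fold lower against 1 higher. The spread of the difference over all genes, as a scaled median absolute deviation, was 0.25 in the induced and 0.29 in the uninduced pair, with medians of -0.017 and 0.027. With 1 array a side these counts have neither a replicate check nor a p-value, and their precision is limited by the number of arrays. Among the 195 genes, 61 had a further probe set above the filter. All further probe sets had the same sign in 55 of them, another passed 2-fold in 32, and in 6 a probe set had the opposite sign. Of 3019 compared probe sets with several symbols or none, 1.95% were 2-fold apart in the induced and 2.29% in the uninduced pair.

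Line differences from before induction nearly all kept their direction after it, and about as many stayed past 2-fold as did not. Of the 315 genes at least 2-fold apart in either pair, 117 passed 2-fold in both and in the same direction (persisting genes, 59 higher and 58 lower in Hey2), 120 passed before doxycycline only (shrinking genes, 41 higher and 79 lower), 78 passed after doxycycline only (appearing genes, 35 higher and 43 lower), and 0 passed in opposite directions. The persisting genes were 49.4% of the uninduced and 60% of the induced set. Of the 237 uninduced differences 228, and of the 195 induced differences 184, had the same sign in the other pair, against 71.4% of all genes. Across all 12098 genes the differences correlated with Pearson's r of 0.67 and Spearman's rho of 0.59, a description over genes, which are not independent replicates, from pairs that share no array. Genes picked on a pair are larger there by the choice: the median size of the uninduced set was 1.21 before and 0.97 after doxycycline, and that of the induced set 1.09 and 1.24.

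**Figure D1:**
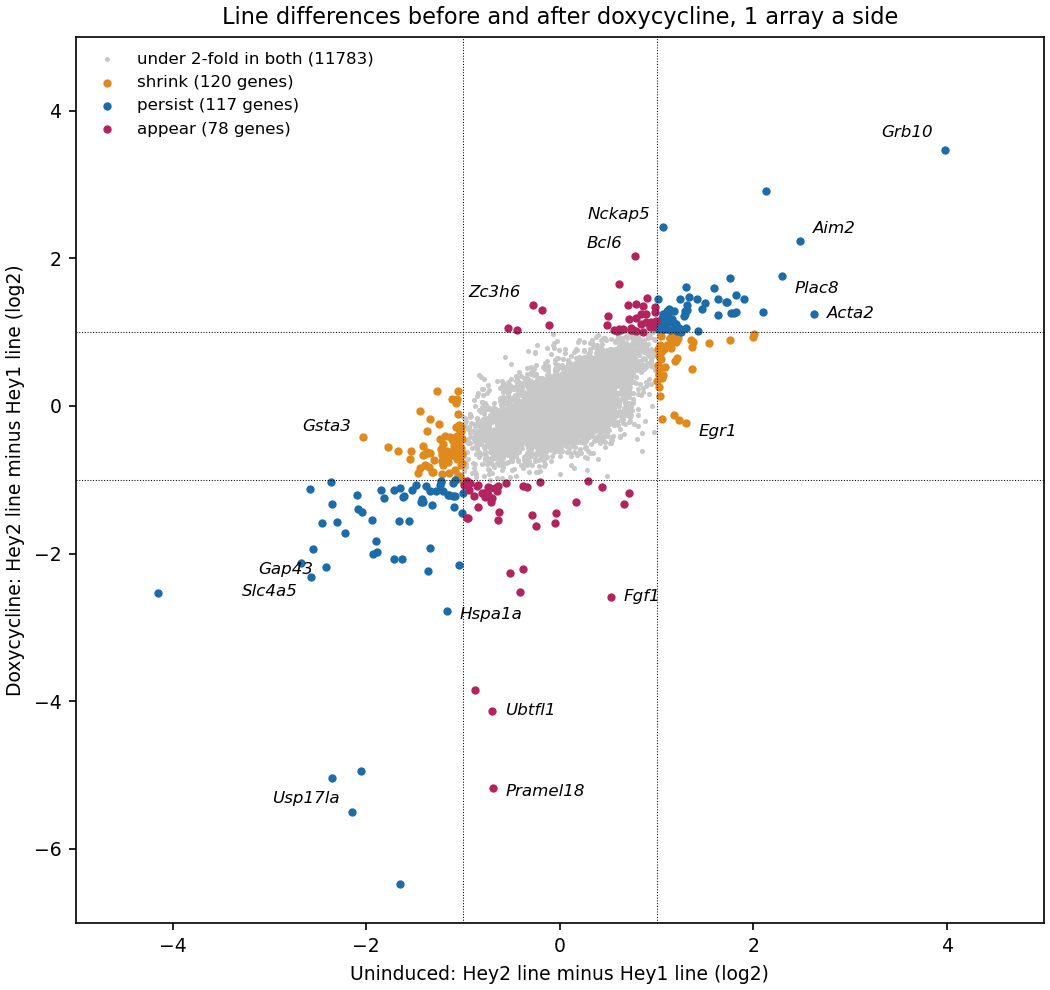
Each point is 1 of 12098 genes, with the log2 difference of the Hey2 line from the Hey1 line on the uninduced arrays on the horizontal axis and on the doxycycline-treated arrays on the vertical axis, 1 array a side; dotted lines mark 2-fold. The 117 persisting genes lie in the upper right and lower left corners, and among the points far down are Usp17la and Pramel18, at -5.49 and -5.17 after doxycycline; the lowest, without a label, is the clone BC080696 at -6.48.

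Among the persisting genes that were higher in Hey2 cells, the imprinted growth factor receptor adaptor Grb10 stood first. It read 8.40 in Hey1 uninduced, 9.18 in Hey1 induced, 12.39 in Hey2 uninduced and 12.65 in Hey2 induced cells. Both Hey2 arrays were thus far above both Hey1 arrays, 3.98 apart before and 3.47, or 11.1-fold, after doxycycline. Its other probe sets gave 1.76 and 2.20 in the induced pair. Aim2, a sensor of cytosolic DNA, read 5.51 and 5.67 in the Hey1 line without and with doxycycline and 7.99 and 7.90 in the Hey2 line, so the Hey1 values lay below the filter. Plac8 read 7.90 and 7.78 against 10.20 and 9.55. Nckap1l, a regulator of actin in blood cells, read 6.70 and 6.95 against 8.46 and 8.68. For these 3 genes too the lines did not overlap, and each array stayed near the other array of its line. The ubiquitin ligase Rnf157 was as far apart after doxycycline as before (1.59 in both pairs), and the chromatin organiser Satb1 nearly so (1.41 and 1.45). Other probe sets of Rnf157 above the filter were less far apart after doxycycline, at 0.42, 0.41 and 1.02. The homeobox gene Nkx6-3 (1.820 and 1.502), the carbonyl reductase Cbr3 (1.64 and 1.45), the protease inhibitor Serpinb6c (1.72 and 1.41) and Kbtbd11 (1.71 and 1.41) were somewhat closer after doxycycline. Of Kbtbd11's other probe sets above the filter, 1 gave -0.08 and another 0.68 in the induced pair, so its difference was not shared by all its probes. Over the 59 genes the median was 1.25 before and 1.26 after, with 25 wider and 34 narrower.

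Of the persisting genes that were lower in Hey2 cells, those named by size follow, with no theme tested over the 58. Vim, the intermediate filament of mesenchymal cells, read 12.11 and 11.92 in the Hey1 line without and with doxycycline and 10.22 and 9.94 in the Hey2 line. All 3 of its probe sets were lower in Hey2 induced cells, the others at -1.74 and -1.94. Gstp1, a glutathione transferase, read 13.50 and 13.45 against 11.95 and 11.90. These were high signals on every array, and the pairs before and after doxycycline differed by under 0.1 in both genes. Gap43, a protein of growing axons, read 9.28 and 9.04 against 6.86 and 6.86. The bicarbonate transporter Slc4a5 read 7.62 and 7.49 against 5.05 and 5.17. Cabp4, a calcium-binding protein of photoreceptors, read 7.93 and 7.41 against 5.26 and 5.28. Its other probe set, above the filter, was less far apart, at -1.18 before and -0.58 after doxycycline. In Slc4a5 and Cabp4 the Hey2 values lay below the filter, where fold changes are understated or uncertain, as did the lower induced value of 25 of the 58 genes. The cell-surface protein Thy1 (-1.62 before and -2.07 after), the prostaglandin synthase Ptgs2 (-1.934 and -2.001), the channel Trpm1 (-1.90 and -1.83) and Pnma5 (-2.22 and -1.72) were at least 3-fold apart in both pairs. Below the filter, the other probe set of Ptgs2 gave -0.17 and those of Trpm1 0.03 to 0.10 in the induced pair. Vim and Thy1 are also genes of fibroblasts, whose 8 markers had medians of 5.25 in Hey1 induced and 5.36 in Hey2 induced cells, below the filter; the part of other cells in these differences was not tested. Cntnap2, an adhesion protein of neurons, narrowed from -2.46 to -1.59, with Hey1 values of 8.60 and 8.80 and Hey2 values of 6.15 without and 7.21 with doxycycline. The median over the 58 genes was -1.62 before and -1.34 after, with 20 wider and 38 narrower.

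**Figure D2:**
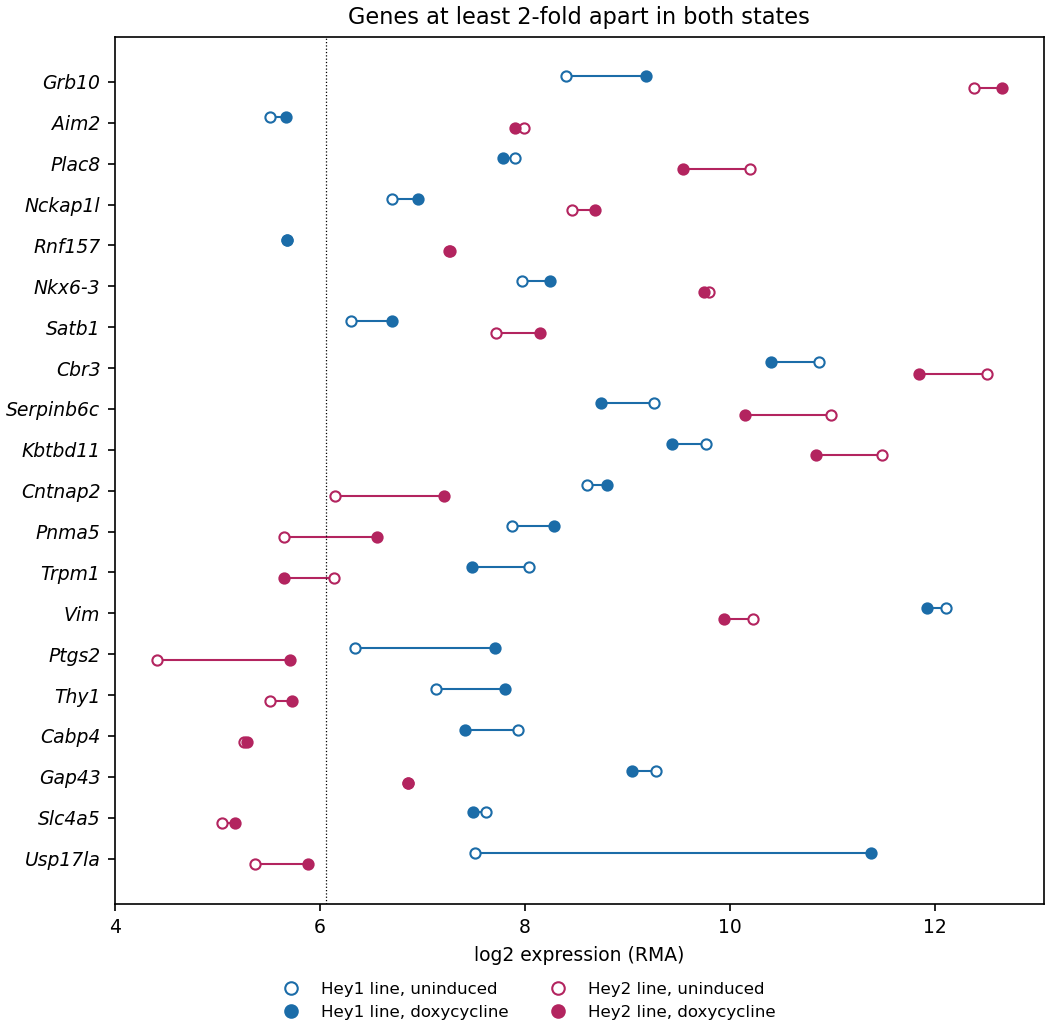
Log2 values of 20 persisting genes on the 4 arrays, with the Hey1 line in blue and the Hey2 line in red, open circles for uninduced and filled circles for doxycycline-treated cells; the dotted line is the level filter. In each gene the 2 filled circles lie at least 1 apart, as in Grb10 at 9.18 and 12.65, and so do the 2 open ones.

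The difference common to both states is the only one that these arrays can test. In a limma fit with induction as a second term, which uses the arrays of a line as its repeats and leaves 1 residual degree of freedom, 65 genes (0.537%) were higher and 46 (0.38%) were lower in the Hey2 line at an adjusted p of 0.05. Of the 111 genes, 85 were persisting genes, which is the same values counted again and no independent support. Grb10 had a line effect of 3.73 ± 0.15 (SE) with a limma adjusted p of 0.044, the lowest value, which 66 genes shared. Acta2 (limma adjusted p of 0.075), Usp17la (0.093) and Pramel18 (0.198) did not pass, and the difference of each changed with doxycycline (by -1.38, -3.35 and -4.48). The calls rested on the choice of fit: leaving out the Hey1 induced array left limma 0 genes in both directions (715 higher and 460 lower at an unadjusted p of 0.05), as did leaving out the Hey2 uninduced array (1351 and 998). Leaving out the Hey1 uninduced array left 0 higher (780 unadjusted) and 5 lower, and leaving out the Hey2 induced array 32 and 39; with 3 arrays these fits have no induction term. Without the induction term 2 were higher and 3 lower. The labels name no separate cultures, and no condition has a repeat array. In the fit with the induction term, a gene's residual is the change of its line difference with doxycycline, which may be technical. Its p-values thus rest on how constant a difference was, and not on a spread between repeats. Pramel18, whose difference changed by -4.48, had an SE of 1.14. Rnf157, whose difference changed by 0.005, had an SE of 0.080. No fit can test whether a difference itself changed with doxycycline, since that term leaves no residual.

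With predicted genes and clones left out, the 3 largest differences after doxycycline were in listed two-cell genes, lower in Hey2 and high in Hey1 induced cells. Usp17la, a deubiquitinase, read 7.51 in Hey1 uninduced, 11.37 in Hey1 induced, 5.36 in Hey2 uninduced and 5.88 in Hey2 induced cells. It was already -2.15 apart before doxycycline and was -5.49 apart after it, 45.0-fold lower in Hey2. Pramel18, of a family expressed in oocytes and early embryos, read 5.19, 9.94, 4.50 and 4.77 in that order, 36.0-fold lower. Ubtfl1, needed in preimplantation embryos, read 3.98, 7.39, 3.28 and 3.27, 17.5-fold lower. In each of the 3 genes the Hey1 induced array was by far the highest, though for Usp17la the Hey1 uninduced array also read above both Hey2 arrays. The Hey2 values of all 3 lay below the filter on both arrays, so the folds are uncertain. The clones BC080696 (-6.48), Gm20767 (-5.03) and AF067061 (-4.94), chosen here after their values were seen, were also far lower in Hey2 induced cells. Gm20767 and AF067061 were already -2.35 and -2.06 apart before doxycycline. In BC080696 the arrays read 5.73, 10.65, 4.08 and 4.18.

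Of 28 listed genes of the two-cell-like state, 13 were on the array and 7 passed the filter. Among these 7, 6 were at least 2-fold lower in Hey2 induced cells, beside 0.835% of all genes, and 0 higher. Only the translation factor Eif1a was under 2-fold apart, at -0.28. The list's median induced difference was -2.21, beside -0.017 over all genes, and its uninduced median was -0.38. A gene that passed the filter only through the Hey1 induced array had to differ, and Pramel18, Ubtfl1, Sp110 and Rfpl4b passed in that way. The list was also chosen with earlier results of these arrays known. For both reasons neither count is independent evidence of a direction. Sp110, a nuclear body protein, read 6.0 and 8.01 in the Hey1 line without and with doxycycline and 5.62 and 5.80 in the Hey2 line. Its other probe sets, below the filter, did not show this, with induced differences of 0.18 and -0.21. Zfp352, a zinc finger gene of the two-cell stage, read 6.09 and 7.43 against 5.80 and 5.95. Rfpl4b read 4.99 and 6.52 against 4.94 and 4.93. Each of these was under 0.4 apart before doxycycline and over 1.4 apart after it, with the Hey1 induced array again the only high one. Below the filter, Tcstv3 (-2.48) and Tdpoz1 (-1.45) were lower as well, while the driver gene Duxf3 (-0.50) and Tcstv1 (-0.80) were under 2-fold apart. Whether a few cells with much RNA or many cells with little gave these signals cannot be told apart in bulk RNA. Members of these families are near copies of each other, so a probe set may read more than the gene it is named for.

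The run of 15 bases in the Sp110 and Zfp352 windows, AACACACCTTTAATC, was found by comparing the windows of the two-cell genes after their values were seen. On either strand it occurs in 23 of 32851 RefSeq windows (0.070%) and in 3 of the 9736 compared genes that have a window. Those 3 are Sp110, Zfp352 and Pemt, an enzyme of phospholipid synthesis. Pemt read 7.10, 7.14, 7.18 and 6.89, with an induced difference of -0.25, so the run did not go with a high Hey1 induced value there. Of 5 two-cell genes with a window, 2 hold the run, and they are the pair it was found in. A match is a description of these letters and not a binding site.

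Other genes also stood out in the Hey1 induced array alone. The heat shock gene Hspa1a read 6.64 in Hey1 uninduced, 9.08 in Hey1 induced, 5.48 in Hey2 uninduced and 6.30 in Hey2 induced cells, a difference of -1.16 before and -2.78 after doxycycline. Its near copy Hspa1b was -0.88 and -1.22 apart, and the other 16 of 18 heat shock genes compared were under 2-fold, with a list median of -0.031. Psors1c2 read 6.21, 8.17, 5.69 and 5.91, an induced difference of -2.26. Fgf1, a fibroblast growth factor, read 5.42, 7.32, 5.95 and 4.73, so its difference was 0.53 before and -2.59 after doxycycline, and the lines moved in opposite directions. Its other probe sets gave -0.81 and, below the filter, -0.30. Hmgn3, a nucleosome-binding protein, read 7.69, 8.79, 7.44 and 7.16, and its other probe set (-1.67) gave nearly the same induced difference as the first (-1.63). Jade2, part of a histone acetyltransferase complex, read 8.50, 9.75, 8.79 and 8.73, but its other probe set gave only -0.24. The keratin Krt19 read 6.43, 7.72, 6.59 and 6.42. Its neighbour Krt17 went the other way, higher in Hey2 by 1.80 before and by 1.26 after doxycycline. With the share over all genes not counted, the Hey1 line moved more than the Hey2 line in 33 of the 43 genes that appeared lower in Hey2. In the strictest set, under 0.5 apart before doxycycline, this held for 10 of 12, and the exceptions were the kinase Aurkc and the cell cycle gene Ccnd1. Ccnd1 read 10.87, 10.62, 10.49 and 9.54, a response to doxycycline of -0.25 in Hey1 cells and -0.95 in Hey2 cells.

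**Figure D3:**
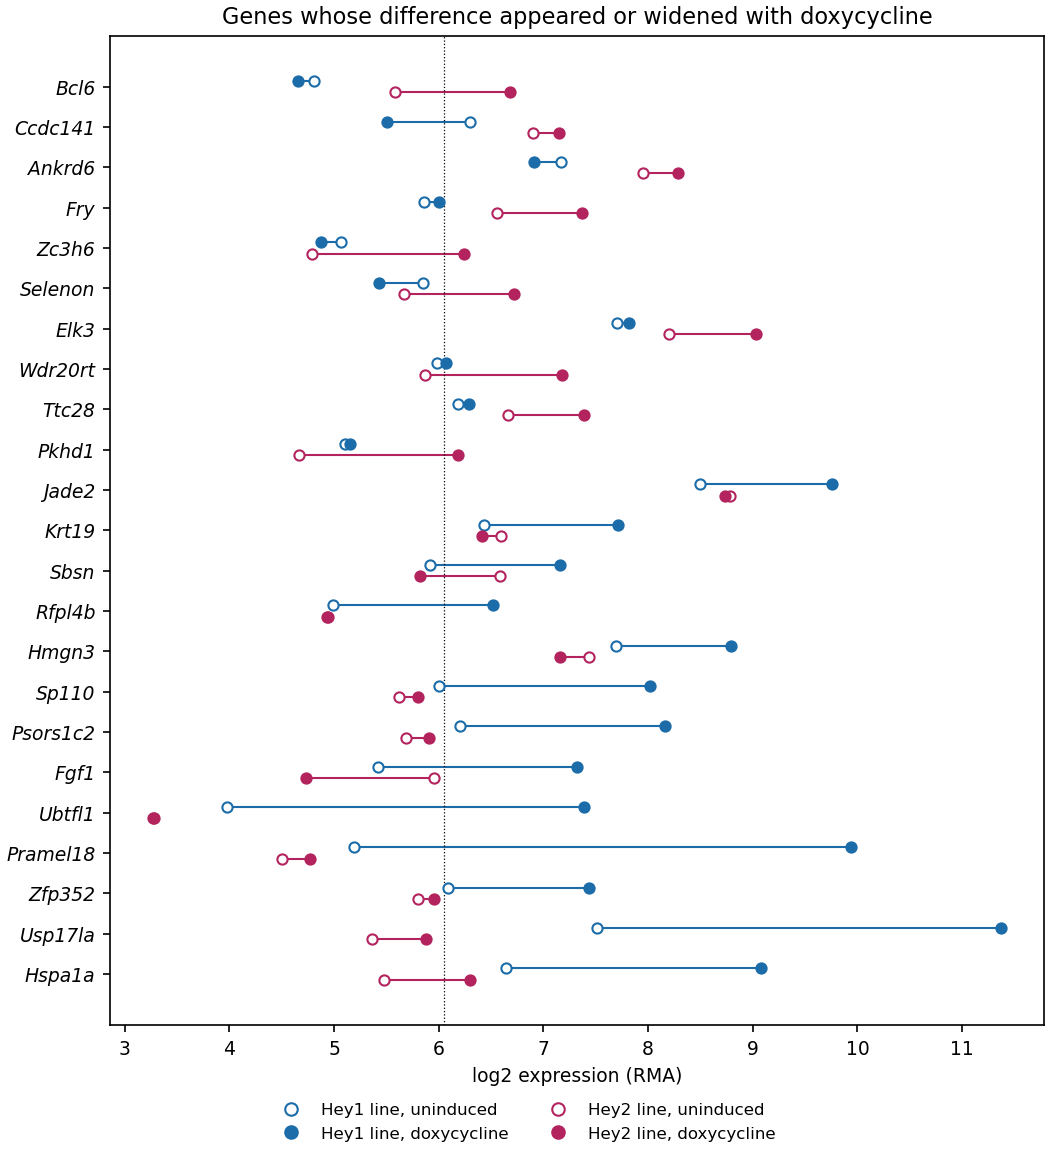
Log2 values of 23 genes whose line difference appeared or widened with doxycycline, on the 4 arrays, with colours, symbols and dotted filter line as for the persisting genes. From Jade2 down, the filled blue circle (Hey1 with doxycycline) is the highest of each gene, as in Pramel18 at 9.94; above it the filled red circle (Hey2 with doxycycline) is.

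Genes that appeared higher in Hey2 induced cells were 35 against 43 lower, with medians after doxycycline of 1.14 and -1.22. Bcl6, a transcriptional repressor of germinal centre B cells, read 4.81 and 4.65 in the Hey1 line without and with doxycycline and 5.58 and 6.68 in the Hey2 line, a difference of 0.77 before and 2.03 after. Its other probe set, below the filter, gave 0.21 before and 0.19 after. Nckap5, a persisting gene, widened from 1.06 to 2.42, with values of 3.99 and 3.70 against 5.05 and 6.12. Ccdc141 read 6.29 and 5.51 against 6.90 and 7.15, so a lower Hey1 value made most of its widening from 0.61 to 1.65. The Hey1 values of Bcl6 and Nckap5 lay below the filter on both arrays, so their folds are uncertain. Elk3, an ETS factor and partner of the serum response factor, read 7.70 and 7.81 against 8.20 and 9.03. Selenon, a selenoprotein of the endoplasmic reticulum, read 5.85 and 5.43 against 5.67 and 6.72. The zinc finger gene Zc3h6 read 5.07 and 4.88 against 4.79 and 6.24. With Pkhd1 (1.03 after doxycycline), Wdr20rt (1.10) and Ttc28 (1.10) these made up the 6 genes under 0.5 apart before doxycycline. The Hey2 line moved more than the Hey1 line in 6 of 6, a count without the share over all genes beside it. Among genes already apart in both pairs, the scaffold Tanc1 went from 1.31 to 1.61 and the vitamin C transporter Slc23a1 from 1.34 to 1.48. The adhesion protein Tenm3 (0.90 and 1.46), Ankrd6 (0.78 and 1.38) and Fry (0.70 and 1.37) crossed 2-fold from below it. In all, 13 of the 78 appearing genes were between 0.9 and 1 before doxycycline, and 53 were already past 1.5-fold in the same direction.

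The arrays of the Hey2 line lay farther apart than those of the Hey1 line, both over all genes and in most genes whose difference shrank. Over all genes the spread between the arrays of a line was 0.22 in Hey2 and 0.16 in Hey1. In 95 of the 120 shrinking genes the Hey2 arrays were farther apart than the Hey1 arrays. For this and every other count of the line that moved more, the share over all genes was not counted. Gsta3, a glutathione transferase, read 9.13 and 8.89 in the Hey1 line without and with doxycycline and 7.10 and 8.48 in the Hey2 line, from -2.03 to -0.42. Zfp182 read 6.72 and 6.83 against 5.27 and 6.76. Brca2, of homologous recombination repair, read 10.65 and 10.65 against 9.59 and 10.75. In these 3 genes only the Hey2 uninduced array stood apart, and the other 3 arrays were close. Tbx3, a factor of naive pluripotency, read 11.01 and 10.62 against 9.94 and 10.66, and Vps13a, a lipid transfer protein, 7.54 and 7.65 against 6.20 and 7.47. Ccdc88a, a regulator of actin and signalling, ended at 0.20 after -1.05. Of 26 genes that were lower before doxycycline and under 0.5 apart after it, the Hey2 line moved more in 25. The Hey2 uninduced array had the lowest 3′ to 5′ ratio of the 4 for each control transcript, for example 0.669 for the transferrin receptor against 0.836 to 0.957, and the part of this in the shrinking differences was not tested.

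Of the 41 shrinking genes that had been higher in Hey2 cells, 37 were still above 0 after doxycycline. Tagln, an actin-binding protein of smooth muscle, read 7.22 and 7.40 in the Hey1 line without and with doxycycline and 9.22 and 8.34 in the Hey2 line. The secreted factor Il17b read 7.71 and 7.49 against 9.47 and 8.39, and Fgf18 5.71 and 5.67 against 6.94 and 5.47. In each the Hey2 uninduced array was highest. Egr1, an early response gene of growth factor signalling, read 8.13 and 9.02 against 9.43 and 8.78, so the Hey1 line was higher and the Hey2 line lower with doxycycline and the difference went from 1.30 to -0.23. Ptch1, the Hedgehog receptor, chosen after its values were seen, read 10.37 and 10.04 against 11.39 and 10.29. The ubiquitin ligase Rnf128 (2.002 to 0.974) and Tagln (1.99 to 0.94) were among 7 of the 41 genes that ended between 0.9 and 1, just under 2-fold, and 26 of the 41 were still past 1.5-fold in the same direction. The median over the 41 was 1.14 before and 0.77 after, and over the 79 lower genes -1.12 and -0.61.

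The 26 gene lists gave few shifts of a whole list, and most differences lay in single members. Of 22 compared genes of smooth muscle and the serum response factor, 19 were above 0 in each pair and 18 in both, with a median of 0.47 before and 0.17 after doxycycline. Acta2 (2.63 and 1.25) and Myl9 (2.10 and 1.28) were the 2 that stayed past 2-fold, and 4 had been before. Of 24 compared genes of the Atf4 stress response, 19 were above 0 in the induced pair (median 0.17) and 8 in the uninduced pair (median -0.067), with 0 past 2-fold. Over all genes the induced and uninduced medians were -0.017 and 0.027, and the share above 0 was not counted. Of the Nrf2 and glutathione genes, Gpx2 (1.32) was higher and Gstp1 (-1.55) lower after doxycycline, with a median of 0.15 over 21. Genes of Wnt signalling had a median of 0.33 over 20 genes before and 0.068 after doxycycline. Over 28 Notch pathway genes the median was -0.027 and 0 passed 2-fold, a median whose sign turned under 3 alternatives. The largest in size was the ligand Jag1 (-0.67), and the Notch target Hes1 was at -0.55 after 0.07 before doxycycline.

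Imprinted genes had a median of -0.067 over 28, and its sign turned under 2 alternatives. Besides Grb10, which was higher, Plagl1, a zinc finger factor of growth control, was lower (10.22 and 10.32 against 8.60 and 9.08). So was Ddc, an enzyme of dopamine synthesis (11.30 and 11.23 against 10.06 and 10.16). Of Plagl1's other probe sets, 1 above the filter gave only -0.26 and 1 below it 0.32 in the induced pair. That of Ddc, below the filter, gave -0.11. Among interferon and DNA-sensing genes, Aim2 and Plac8 were higher and Sp110 and the antiviral enzyme Oas1a (-1.21) lower, with a median of -0.18 over 23. Epiblast genes had 3 of 14 lower, beside 0.835% of all genes, and 0 higher. The 3 were Zic5, Zic2 and the cadherin Cdh2 (-1.34 before and -1.16 after doxycycline). The median of this list, -0.29, turned to 0.21 with the filter at the 75th percentile (7 genes). Zic5 read 9.33 and 8.28 in the Hey1 line and 7.97 and 6.05 in the Hey2 line, lower with doxycycline in both. Sox1, a neural marker outside that list, read 8.14 and 7.35 against 7.05 and 5.98. Trh, the thyrotropin-releasing hormone gene, was likewise lower with doxycycline in both lines, at 11.80 and 11.15 against 10.76 and 8.99. For these 3 genes each Hey2 array read below the Hey1 array of the same treatment, by more after doxycycline than before. Naive pluripotency genes (28, median 0.035) and genes of BMP signalling (24, -0.015), mitosis (24, -0.024) and housekeeping (17, 0.033) had 0 members past 2-fold, and the signs of the BMP and housekeeping medians turned under an alternative. Of 21 germline genes, the ATP carrier Slc25a31 (-1.22) and the meiotic cohesin Smc1b (-1.18) were lower, and Cpeb1, a regulator of translation, stood at 0.98 after -0.07 before doxycycline. The remaining lists held at most 2 genes past 2-fold in a direction, with medians from -0.29 for 6 fibroblast genes to 0.20 for 25 genes of adhesion and matrix.

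**Figure D4:**
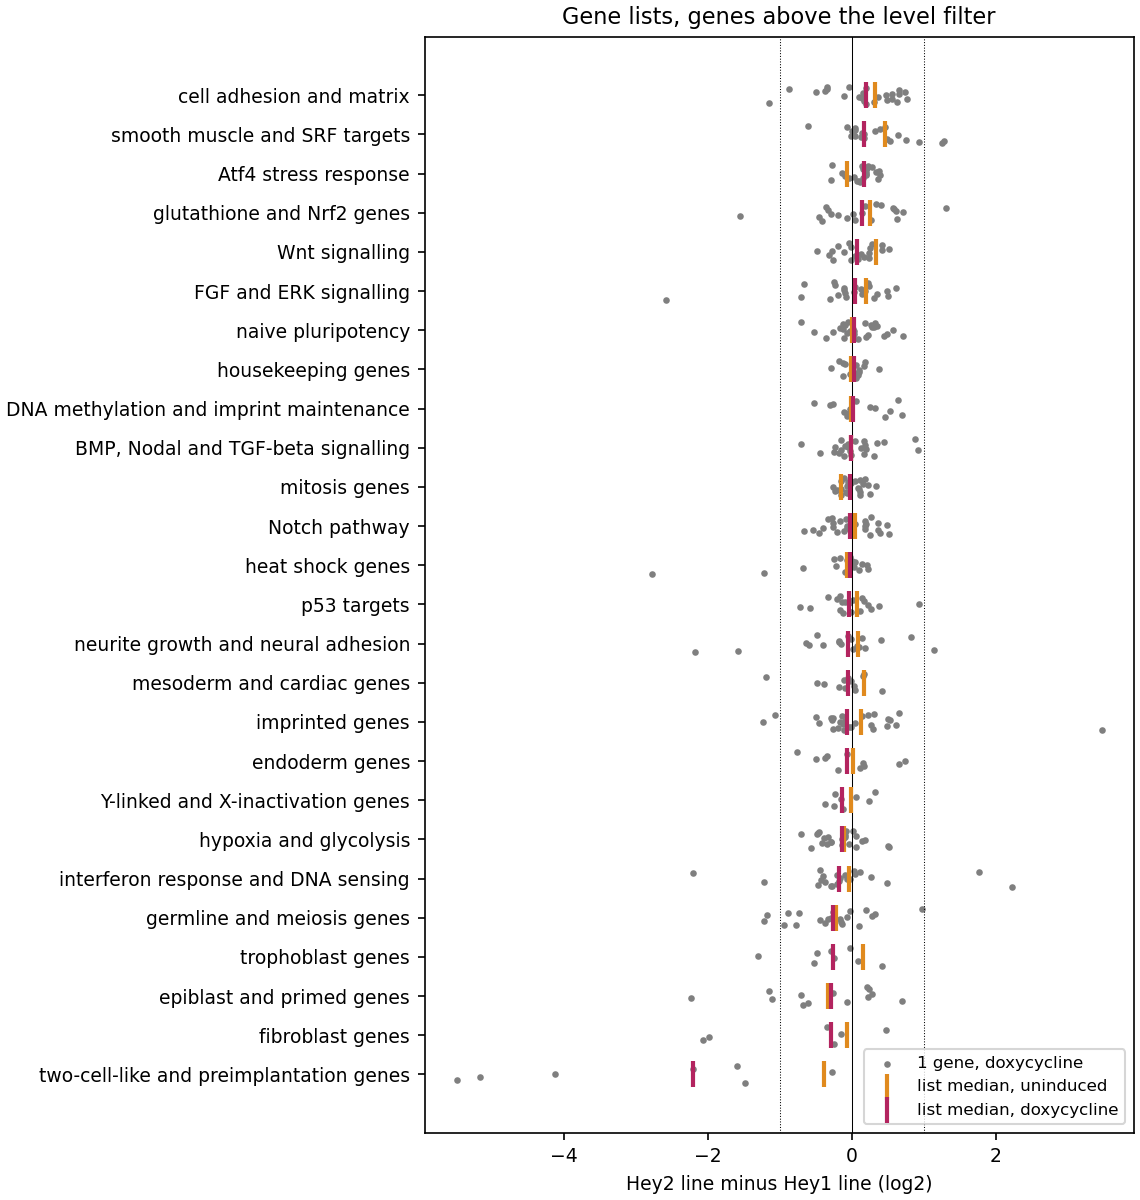
Induced difference (log2, Hey2 line minus Hey1 line) of each compared gene in 26 lists as grey points, with the list median after doxycycline in red and before it in orange; dotted lines mark 2-fold. The two-cell list alone has its induced median, -2.21, beyond 2-fold. That list was chosen with earlier results of these arrays known. Its members that passed the filter only through the Hey1 induced array had to differ.

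Pairs of neighbouring genes that were both past 2-fold were few. Over 12051 genes placed on 20 chromosomes, chromosome medians of the induced difference were -0.081 to 0.015. Medians of 11469 runs of 30 neighbouring compared genes were -0.29 to 0.33, with 0 past 2-fold. Such a median would need a large part of the run past 2-fold, where 1.61% of all genes were. That 0 was thus all but fixed in advance, and these runs cannot show short groups. In 11 pairs of adjacent compared genes both members were at least 2-fold apart, 9 in the same direction. The number of such pairs to be met without any link between neighbours was not worked out. The longest group was Ddc (-1.07), 1700042O10Rik (-1.14), Grb10 (3.47) and LOC102631979 (2.91), where the direction turned within the group. The others in the same direction included Zic5 with Zic2, Hspa1b with Hspa1a, Vim with the sialyltransferase St8sia6 (-1.13), Gstp1 with its near copy Gstp3 (-1.14), and Gm20767 with AF067061.

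Sequences that Hey-type factors bind were counted in the promoters as a description, with no test. The E-box CACGTG, a palindrome, lay in a 250-base window of 974 of 9736 compared genes, in 8 of 73 genes higher in Hey2 induced cells and in 7 of 80 lower (8.75%). The class C site CACGCG, searched on both strands, lay in 16.5% of compared genes, in 14 of 73 higher (19.2%) and in 7 of 80 lower (8.75%). Over all 32851 windows of that length, counted by window and not by gene, the shares were 6.02% and 7.62%. Among persisting, shrinking and appearing genes the E-box was in 10 of 91, 13 of 96 and 5 of 62 genes that have a window. Bcl6 and Trpm1, shown above, hold it before 1 of their 2 start sites, and nothing about the binding of either factor follows from these letters.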

How the data were processed

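Total RNA of 4 samples was biotin-labelled and hybridised to single-colour Affymetrix arrays, 1 per group, grouped by title. The deposited log2 probe set values were made by the authors with RMA, per the submitters' processing notes; its version was not given in the sources used here, nor are the chip definition and build. RMA forces the arrays to a single distribution, so a shift of all genes together cannot be seen. Sorted values of the arrays agreed within 0.0024. Depth has no counterpart here.

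Probe sets took their symbol from the platform annotation. Of 45101, 34958 had 1 symbol, 932 several and 9211 none, and 34754 of the first matched RefSeq (GRCm38.p6). The differences, classes, list medians and neighbour order were computed with Python 3.11.15, numpy 2.4.6, pandas 2.3.3 and scipy 1.17.1, figures with matplotlib 3.10.9, and the line effect with limma 3.58.1 in R 4.3.3 (lmFit, eBayes, Benjamini-Hochberg at 0.05). The limma step was tested on simulated data for all 12098 genes with 200 changed.

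The members, gene lists and rules were chosen with earlier results of these data known. Named genes were the 12 per direction with the largest induced difference, the 10, 8 and 10 per direction leading the persisting, shrinking and appearing classes, and from each list the 4 largest and any past 2-fold, without predicted genes and clones. Genes named in a strict set, as neighbours, as markers or as list members below the filter fell outside this rule and were picked with their values in view. Alternatives were other filters, cyclic loess, median centring, an offset of 32 on the linear scale, other uses of probe sets, thresholds of 1.5-fold and 3-fold, other limma settings and each array left out.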

Additional observations from a re-analysis of the deposited data

Results flagged for a closer look

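In 5 named genes the lines differed in opposite directions before and after doxycycline, each time by more than the spread over all genes. The change of direction was not tested, since each value is 1 array minus 1 array. Fgf1 was 0.53 higher in Hey2 before and -2.59 after doxycycline, and Sbsn, a secreted protein of skin, went from 0.66 to -1.33. The trophoblast factor Hand1 went from 0.46 to -0.49. Pkhd1, the fibrocystin gene, went from -0.44 to 1.03 and the mitotic motor gene Cenpe from -0.65 to 0.33. Other probe sets did not all turn: for Sbsn, 1 above the filter went from -0.17 to -2.12 and 1 below it from 0.27 to -0.08, and that of Cenpe went from -1.01 to -0.16. For Fgf1, 1 above the filter turned from 0.55 to -0.81 and 1 below it went from -0.19 to -0.30. That of Hand1, below the filter, gave 0.04 and 0.12.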

How the results depend on the processing

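Counts at 2-fold were within 1.5 times the values above without a level filter, with the filter on the induced arrays and with cyclic loess. Median centring left them unchanged, which was all but fixed in advance because sorted values of the arrays agreed within 0.0024. Loess kept 93 of the 94 higher and 100 of the 101 lower genes. With the filter at the 75th percentile there were 51 higher, 44 lower, 61 persisting, 63 shrinking and 34 appearing genes. With an offset of 32, which shrinks differences of dim probe sets, these were 58, 59, 65 and 74, and 52 still appeared. When probe sets of a gene were averaged, 50 were higher, 78 shrank and 48 appeared, and 47 of the 50 were among the 94. With every probe set on its own, 147 were higher, 155 lower, 245 shrank and 129 appeared. A 1.5-fold threshold gave 478 higher, 334 lower, 491 persisting, 585 shrinking and 318 appearing genes, and so more higher than lower genes, and a 3-fold threshold gave 10, 29, 22, 32 and 17. Asking that the other difference stay under 0.5 left 39 shrinking and 18 appearing genes. The median of the two-cell list was -1.48 without a filter (13 genes), -1.73 with the offset, -2.996 with mean probe sets and -5.17 at the 75th percentile (3 genes).

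The limma counts depended on the fit throughout. They were 2 higher and 3 lower without the induction term, 1543 and 1390 with a trend and robust prior, 1066 and 798 at the 75th percentile, 333 and 176 after cyclic loess, and 311 and 243 with mean probe sets. Leaving out 1 array gave 0 to 32 higher and 0 to 39 lower, where the lone array is assumed to vary like the others; at an unadjusted p of 0.05 all 4 arrays gave 1840 and 1582. The cause was not tested. Of values for single named genes, 510 stayed and 70 moved by more than the spread under the alternatives run, and 0 of those past 2-fold turned sign. The 510 include every value under median centring, which could not move a value that far. Neither centring nor the offset could turn the sign of a difference past 2-fold. The limma fit with induction as a term already compares the lines within each state. No paired analysis was possible because each group is 1 array with no replicates, so no replicate block could be added to it. Signal near background limits the folds of dim genes.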
